A study of Equus caballus with 22 samples.

Results

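Gene expression in the endometrium of pregnant mares was compared between day 12 and day 8 of early pregnancy. The comparison takes the 11 samples of the series whose titles name pregnant endometrium, 6 taken at day 12 and 5 at day 8, out of 22 samples in all. Every sample is a biopsy of the uterine lining of a warmblood mare, collected once the embryo had been recovered. The other 11 samples are control endometrium of the same mares at the matching stages without pregnancy, 6 at day 12 and 5 at day 8, and are used here for comparison. The groups carry no genetic change and no treatment is named in the labels. Each sample was hybridised to 1 Agilent horse array in 1 colour, and a level is given here as the log2 spot intensity minus the 75th percentile of its array, so that 0 marks the 75th percentile and a difference of 1 a doubling.

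In the mare the early embryo moves freely through the uterus inside a capsule and takes up what the endometrial glands secrete, a mixture called histotroph. Progesterone from the corpus luteum drives this secretion and lowers the oestrogen receptor of the glands as the luteal phase goes on. The embryo must also keep the endometrium from releasing prostaglandin F in pulses, which would end the luteal phase, and the signal by which the horse embryo does so is not known. Enzymes that make or inactivate steroids and prostaglandins, carriers of vitamins and lipids, and transporters of ions and sugars have therefore been the classical genes of interest in this tissue.

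The days differ in more than stage. The day 12 arrays lay on 4 slides scanned on 3 days with 1 version of the scanner software, and the day 8 arrays on 3 other slides scanned on 2 other days with a later version. No slide or scan day held arrays of both days, so stage, slide, scan day and software version cannot be told apart in any value below. The measures of array quality that were tested overlapped between the days. The share of spots well above background was 82.9% ± 4.52 at day 12 and 82.4% ± 1.46 at day 8 (SD, n = 6 and 5, exact permutation test, two-sided, p = 0.848), and none of 6 such measures passed (smallest p = 0.348 before adjustment). Other measures, which were not tested, leaned by day with little overlap. Spots with an outlying local background numbered 469 to 922 at day 12 and 825 to 1460 at day 8. The interquartile range of the levels was 4.10 to 4.33 log2 at day 12 and 4.26 to 4.59 at day 8. The number of arrays sets the precision. The labels number the mares on each day but do not say that a number is the same animal on both days, and the groups were compared as unpaired.

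The 11 pregnant arrays separated by day. Over 31038 probes detected on all 22 arrays, the first principal component held 42.1% of the variance, with day 12 arrays between -75.2 and -20.8 and day 8 arrays between 37.6 and 77.7. The day 8 array of mare 1 lay apart from the other arrays of its day on the second component, at 73.3 against -44.1 to 11.7. Correlations of array with array were 0.967 to 0.988 within day 12, 0.958 to 0.989 within day 8 and 0.945 to 0.974 between the days. Markers of the tissue were present on every array. ESRP1, a splicing factor of epithelial cells, stood at 2.47 to 3.12 at day 12 and 2.56 to 3.16 at day 8, and the stromal proteoglycan gene DCN at 3.54 to 4.32 and 4.19 to 4.62.

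**Figure D1:**
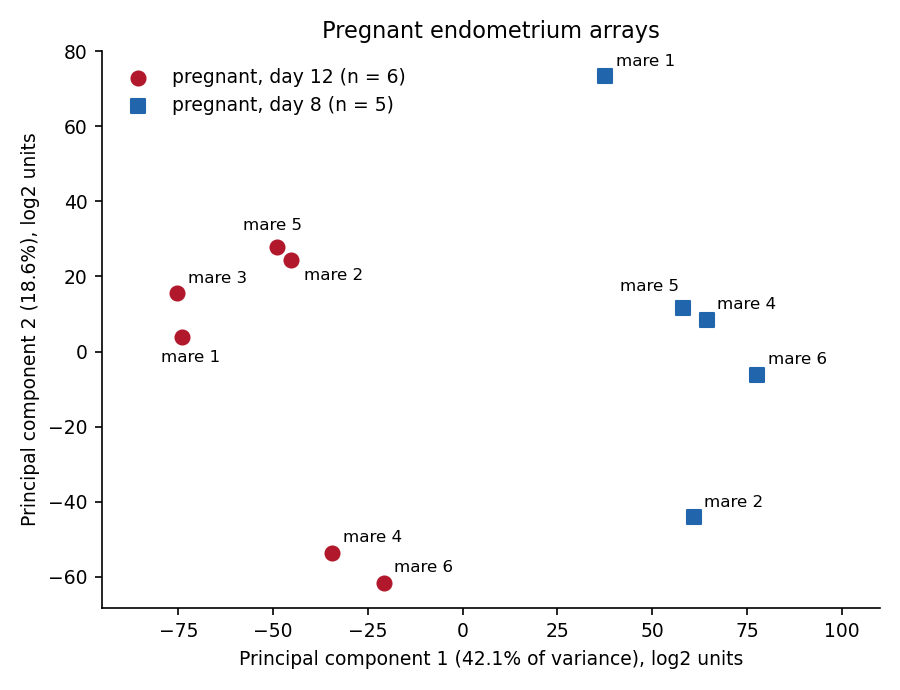
Principal components 1 and 2 of the 11 pregnant arrays, in log2 units, with 42.1% and 18.6% of the variance, computed from levels of 31038 probes; each point is 1 array, labelled with its mare number within the day. Day 12 arrays (circles) lie at -75.2 to -20.8 on component 1 and day 8 arrays (squares) at 37.6 to 77.7, and the day 8 array of mare 1 lies highest on component 2, at 73.3.

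Many transcripts differed between the days. Of 36669 probes tested, 9513 passed an adjusted p of 0.05 (limma with Benjamini-Hochberg adjustment, 25.9% of those tested), 4338 higher (11.8%) and 5175 lower (14.1%) at day 12. Of the 9513 probes, 3499 differed more than 2-fold, 1721 higher and 1778 lower. Groups did not overlap for 5208 probes, or 14.2%. The median difference over all probes was -0.02, and the balance of rises and falls followed the scaling: 45.6% of the passing probes were higher here, 29.5% when arrays were scaled by the median and 60.6% when the 75th percentile was taken over detected probes. Median scaling moved the median of all probes to -0.15. The count fell to 6142 when the day 8 array of mare 6 was left out, stood at 6845 with slide as a random block and fell to 3809 when scan day was a random block, the latter with 1415 higher and 2394 lower.

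Only 1394 of 43603 probes carry a gene symbol here, so named genes are a small sample of the array. Each named gene stands by its probe with the highest mean level. Of 578 named genes tested, 177 passed (30.6%), 50 higher (8.65%) and 127 lower (22%), with a median difference of -0.15. Of these 177, 64 differed more than 2-fold, 22 higher and 42 lower. For 102 of the 578 (17.6%) the groups did not overlap. Named genes therefore lean lower at day 12 as a whole, and gene lists are read below against that background. With median scaling 37 named genes passed as higher and 158 as lower, and with the percentile over detected probes 69 and 94. The day 8 array of mare 1 carried the extreme value of its group for many genes, and every difference quoted for a passing gene kept its direction without it.

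The largest rise among named genes was that of CHGA, which encodes chromogranin A, a protein of the dense secretory granules of endocrine cells. At day 8 its level was -6.46, -6.12, -6.98, -5.02 and -5.59 in mares 1, 2, 4, 5 and 6. At day 12 the lowest level was -3.29, the median -1.35 and the highest 0.27. Every day 12 array thus lay above every day 8 array, with a wide spread among the day 12 mares. CHGA rose by 4.64 ± 0.63 log2 (SE, n = 6 and 5, adjusted p = 0.000927), a 25-fold difference, and all 5 probes passed, at 4.64 to 5.05. The size depended on the background correction. CHGA rose by 2.63 with normexp, another correction run without spots of outlying local background and chosen after seeing the data, and by 3.41 in a fit to the authors' deposited table. Values with normexp below are of that setting unless all spots are named. In control samples the same difference was 1.52 ± 1.01 (adjusted p = 0.354).

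Genes of secreted or lysosomal proteins came next by size. DEFB4B, a beta-defensin with antimicrobial activity, ranged from -6.73 to -1.89 at day 8 and from -2.83 to 0.95 at day 12, so the groups overlapped, and it rose by 3.78 ± 0.95 (adjusted p = 0.0144, both of 2 probes), or by 2.70 with normexp. GM2A, the activator protein that presents gangliosides to a lysosomal enzyme, stood at -0.14, 0.04, -0.39, -0.67 and -1.38 at day 8 in mares 1, 2, 4, 5 and 6, and at 1.74, 2.58 and 4.05 (lowest, median and highest) at day 12. It rose by 3.24 ± 0.38 (9.42-fold, adjusted p = 0.00048), with no overlap. SPI2, a protease inhibitor of the serpin family, was at -5.97, -6.66, -6.05, -6.79 and -4.28 at day 8 and at -4.24, -3.44 and -2.37 at day 12. All day 12 arrays were higher than all day 8 arrays, though barely so for mare 6 of day 8, and SPI2 rose by 2.59 ± 0.48 (adjusted p = 0.00376, both of 2 probes), or by 1.11 with normexp. In control samples GM2A differed by 1.62 and SPI2 by -0.27.

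RBP4, the plasma carrier of retinol, was the most uniform of the large rises. Its level was 1.34, 1.83, 1.31, 1.46 and 1.45 at day 8 in mares 1, 2, 4, 5 and 6, against 3.53, 4.08 and 4.43 (lowest, median and highest) at day 12. The gap between the groups was wider than the range within either group. RBP4 rose by 2.53 ± 0.21 (5.79-fold, adjusted p = 7.93e-05), with all 4 probes between 2.48 and 2.78, and by 1.88 in control samples (adjusted p = 0.0398).

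PRNP, the prion protein gene, went from -4.16 to -2.93 at day 8 to -2.51 to -1.0 at day 12, and rose by 1.78 ± 0.27 (adjusted p = 0.00145). CDH13, a cadherin held in the membrane by a lipid anchor, was at -0.12, -0.90, -1.1, -1.22 and -0.75 at day 8 and at 0.27, 0.57 and 0.91 (lowest, median and highest) at day 12, and rose by 1.42 ± 0.20 (adjusted p = 0.00106).

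EIF2AK2, ABCC1, PRKAB2 and DPRX rose by similar amounts but with overlapping groups. EIF2AK2, the kinase that stops translation on contact with double-stranded RNA, rose by 1.72 ± 0.45 (adjusted p = 0.0164). ABCC1, an export pump for conjugated compounds, rose by 1.59 ± 0.32, PRKAB2, a regulatory subunit of the AMP-activated kinase, by 1.55 ± 0.32, and the homeobox gene DPRX by 1.54 ± 0.37 (0.84 with normexp). In each of these 4 genes the day 8 array of mare 1 was the highest of its day, for example -1.62 against -3.56 to -3.06 for ABCC1, and without it they rose by 2.02, 1.92, 1.87 and 1.89. When scan day was a random block DEFB4B, EIF2AK2 and DPRX no longer passed (adjusted p = 0.0695, 0.0576 and 0.0658).

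The largest falls were those of GAST, the precursor gene of the stomach hormone gastrin, and SV2A, a membrane protein of synaptic and secretory vesicles. GAST stood at 6.44, 5.14, 5.21, 5.21 and 5.10 at day 8 in mares 1, 2, 4, 5 and 6, and at 1.16, 2.19 and 3.93 (lowest, median and highest) at day 12. SV2A stood at 6.08, 5.24, 5.22, 4.80 and 5.11 at day 8 and at 1.53, 2.53 and 3.13 at day 12. Neither gene had a day 8 array as low as any day 12 array. GAST fell by 2.90 ± 0.49 log2 (7.44-fold, adjusted p = 0.00246) and SV2A by 2.89 ± 0.33 (7.40-fold, adjusted p = 0.000427), each on 1 probe. Control samples differed by -3.10 and -2.73.

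**Figure D2:**
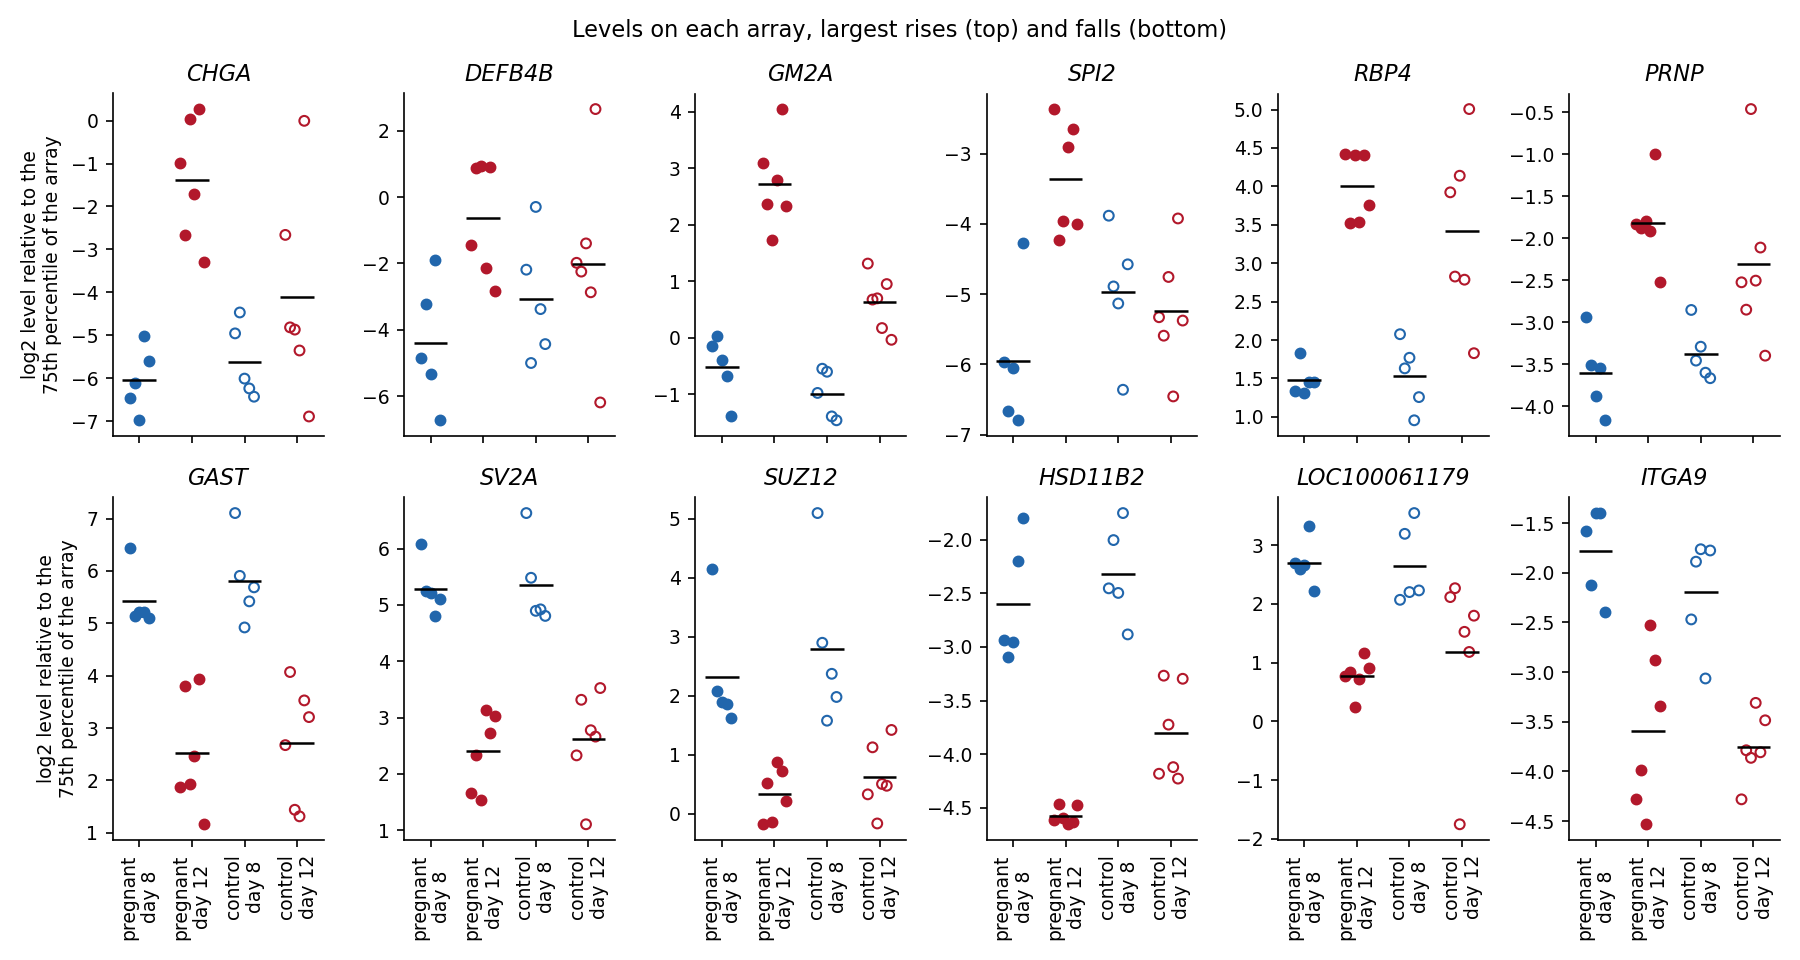
Levels of the 6 named genes with the largest rise (top row) and the 6 with the largest fall (bottom row), in log2 over that array's 75th percentile. Each point is 1 array, filled for pregnant and open for control samples, blue for day 8 (n = 5) and red for day 12 (n = 6), and lines are group means. Of the 12 genes DEFB4B is the one whose pregnant groups overlap, and LOC100061179 has 1 control array at day 12 far below the others.

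HSD11B2, which inactivates cortisol, fell by 1.98 ± 0.22 (3.94-fold, adjusted p = 0.000407), and stood at -1.30 with normexp. Its level was -2.93, -3.10, -2.95, -2.20 and -1.80 at day 8, and the 6 day 12 arrays lay close together, from -4.65 to -4.46. SUZ12, a subunit of the Polycomb repressive complex, fell by 1.98 ± 0.41 (adjusted p = 0.00644), from 4.15, 2.08, 1.89, 1.86 and 1.63 to -0.18, 0.37 and 0.88 (lowest, median and highest). Mare 1 set the upper end at day 8, and without it SUZ12 fell by 1.52. LOC100061179, which has no gene name, fell by 1.92 ± 0.21 (adjusted p = 0.000294, both of 2 probes), from 2.21 to 3.32 at day 8 to 0.25 to 1.17 at day 12.

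Cell surface and signalling genes made up most of the other large falls. ITGA9, an integrin subunit, fell by 1.81 ± 0.37 (adjusted p = 0.00547). MSTN, the growth inhibitor myostatin, fell by 1.78 ± 0.26 (adjusted p = 0.00124) from 0.08, -0.13, -0.34, -0.33 and -0.04 at day 8 to -2.71, -1.73 and -1.37 at day 12. The second probe of MSTN stood at -0.32 and did not pass. The serotonin receptor gene HTR1B fell by 1.62 ± 0.31 and DENND1C, an exchange factor for Rab GTPases, by 1.66 ± 0.27 (adjusted p = 0.00453 and 0.00219), both without overlap.

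NFYC, a subunit of the transcription factor NF-Y, stood at 7.61, 5.89, 6.11, 5.96 and 5.91 at day 8 and 4.24, 4.69 and 5.28 at day 12. It fell by 1.55 ± 0.32 (adjusted p = 0.006), with 2 of its 4 probes past the threshold and the probes between -1.55 and -0.24. SLC2A5, the fructose transporter, was also among the 12 largest falls, at -1.53 ± 0.30 (adjusted p = 0.00446, both of 2 probes).

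Of 14 measured steroid genes, 1 rose, 4 fell and 9 did not pass, where 8.65% of all named genes rose and 22% fell. The list had a median of -0.63 against -0.15 for all named genes. ESR1, the oestrogen receptor alpha, stood at 5.78, 5.19, 6.06, 5.92 and 6.16 at day 8 in mares 1, 2, 4, 5 and 6, and at 4.40, 4.97 and 5.03 (lowest, median and highest) at day 12. It was higher on every day 8 array than on any day 12 array, and fell by 0.94 ± 0.19 (1.92-fold, adjusted p = 0.00556). This is the brightest of 6 ESR1 probes and the only one to pass, and the 6 lie between -0.94 and 0.00. The control difference of ESR1 was -0.68 (adjusted p = 0.108).

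Enzymes of steroid metabolism that fell, beside HSD11B2, were HSD3B2, which forms progesterone and androstenedione, and HSD17B1, which reduces oestrone to oestradiol. HSD3B2 ranged from -4.68 to -3.35 at day 8 and from -6.08 to -4.35 at day 12 and fell by 1.52 ± 0.31 (adjusted p = 0.00553), with -0.75 under normexp. HSD17B1 was at -3.13, -3.37, -3.05, -2.73 and -2.57 at day 8, all above the day 12 range of -4.07 to -3.46, and fell by 0.71 ± 0.18 (adjusted p = 0.0168). NR5A2, a nuclear receptor that drives steroid-forming genes, moved the other way, from -6.18 to -5.04 at day 8 to -5.11 to -4.14 at day 12. It rose by 0.87 ± 0.24 (adjusted p = 0.0222), or by 0.28 with normexp. Among members that did not pass, CYP11A1, the first enzyme of steroid synthesis, stood at -0.98 ± 0.39 (adjusted p = 0.0825), the aldo-keto reductase AKR1C1 at -0.64 ± 0.40 and aromatase, CYP19A1, at -0.63 ± 0.37, with 2 of its 4 probes on the other side of 0. The receptors PGR and OXTR were not analysed here. HSD17B1 and NR5A2 did not pass when scan day was a random block (adjusted p = 0.0601 and 0.0858).

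Of 9 measured prostaglandin genes, 0 rose and 2 fell, near the 22% of all named genes that fell, with a median of -0.35. PLA2G2A, a secreted phospholipase, stood at 3.60, 2.94, 4.13, 3.29 and 4.52 at day 8 and at 1.02, 2.61 and 3.08 (lowest, median and highest) at day 12, with 1 day 8 array inside the day 12 range. It fell by 1.39 ± 0.40 (adjusted p = 0.0252), and all 5 probes passed, at -1.82 to -1.39. PTGDS, which makes prostaglandin D, was at 0.22, -0.06, -0.05, -0.36 and 0.16 at day 8 and at -1.0, -0.63 and -0.18 at day 12. It fell by 0.56 ± 0.17 (adjusted p = 0.032, both of 2 probes). When scan day was a random block neither passed (adjusted p = 0.12 and 0.121), and PTGDS lost its call in 7 of the 11 fits that each left out 1 array.

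The enzymes and receptor closest to prostaglandin F release did not pass. PGFS, a prostaglandin F synthase gene outside the list, was at 0.25 (adjusted p = 0.579). PTGS2, the inducible cyclooxygenase, was at 1.86, 0.22, 1.46, 1.59 and 1.60 at day 8 and at 0.45, 0.94 and 1.74 at day 12, a difference of -0.32 ± 0.32 (adjusted p = 0.486), and its 3 probes lay between -0.32 and 1.03 with a mean of 0.21. PTGES, a prostaglandin E synthase, was at 1.93 to 2.60 and 1.86 to 2.60, a difference of -0.02 ± 0.19 (adjusted p = 0.935). PTGFR, the prostaglandin F receptor, stood at -0.86 ± 0.32 (adjusted p = 0.0675), with levels of -3.79 to -2.68 at day 8 and -5.47 to -3.62 at day 12. HPGD, which inactivates prostaglandins, was at -0.54 ± 0.54 and the phospholipase PLA2G4A at 0.40 ± 0.19, although the second PLA2G4A probe passed, at 0.69 (adjusted p = 0.00908).

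Of 10 measured genes of proteins secreted into uterine fluid, 9 were higher at day 12, and 4 passed as higher and 1 as lower, where 8.65% and 22% of all named genes did. The median was 0.49, against -0.15 for all named genes. RBP4, GM2A and SPI2, described above, were 3 of the 4. The fourth was CLU, the extracellular chaperone clusterin, at 5.24, 5.38, 4.88, 4.70 and 5.2 at day 8 and at 5.38, 5.71 and 6.06 at day 12. CLU rose by 0.63 ± 0.17 (adjusted p = 0.0196), with the highest day 8 array level with the lowest of day 12.

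P19, the lipocalin also known as uterocalin that the endometrial glands secrete for the embryo, was lower at day 12. Its level was 8.35, 7.60, 7.72, 7.74 and 7.97 at day 8 and 6.79, 7.39 and 7.55 (lowest, median and highest) at day 12. It fell by 0.57 ± 0.18 (1.49-fold, adjusted p = 0.0384), though with quantile normalisation the difference was 0.04. P19 lost its call in 7 of the 11 fits that left out 1 array. Members that did not pass included B2M at 0.49 ± 0.20 and TIMP1, an inhibitor of matrix metalloproteinases, at 0.48 ± 0.21. The secreted glutathione peroxidase GPX3 stood at 0.33 ± 0.27. In the short lysosome list GM2A rose and SMPD1 stood at -0.17 ± 0.18. The list also holds the glycogen branching enzyme GBE1, which is not a lysosomal protein. GBE1 rose by 0.48 ± 0.12 (adjusted p = 0.015), and the list median of 0.48 is its value. When scan day was a random block CLU, P19 and GBE1 did not pass (adjusted p = 0.0814, 0.12 and 0.0728).

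**Figure D3:**
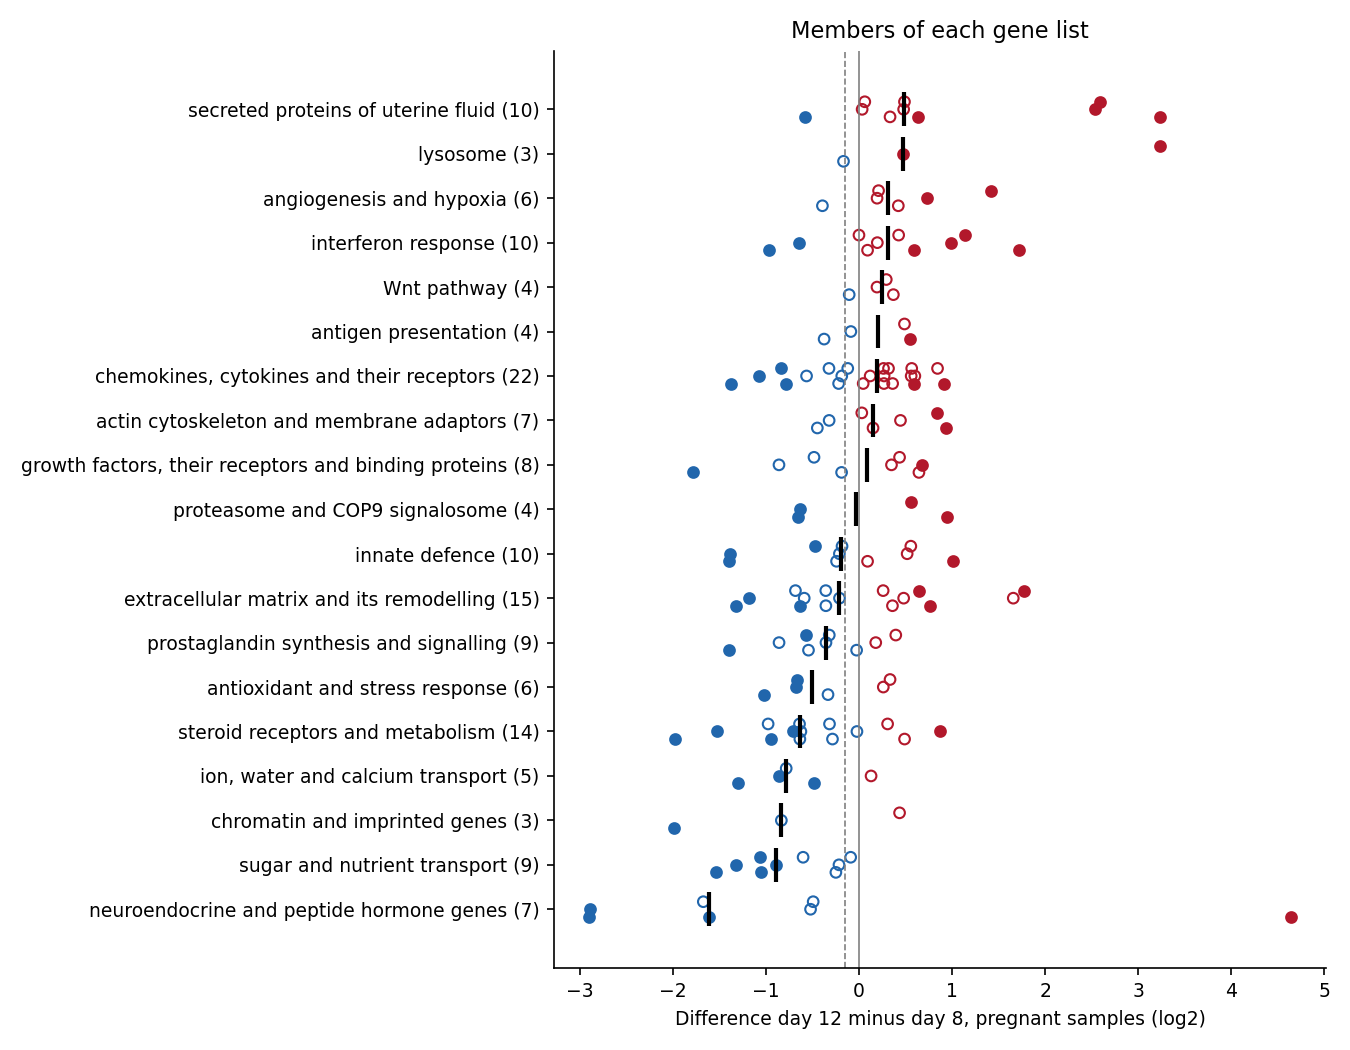
Difference between day 12 and day 8 in pregnant samples, in log2, for every measured member of the gene lists with at least 3 members, sorted by list median. Each point is a gene, red where higher and blue where lower at day 12, filled where it passed an adjusted p of 0.05; short bars are list medians, the solid line marks 0 and the dashed line the median of all named genes, -0.15. The median is highest for secreted proteins of uterine fluid (0.49) and lowest for neuroendocrine and peptide hormone genes (-1.62).

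All 9 measured genes of sugar and nutrient transport were lower at day 12, 5 of them past the threshold, where 22% of all named genes fell, and the median was -0.89. Beside SLC2A5 these were SLC2A4, the insulin-regulated glucose transporter, and PRKAG3, a subunit of the AMP-activated kinase. SLC2A4 stood at -0.50, -1.01, -0.58, -0.50 and -0.41 at day 8, all above the day 12 range of -2.18 to -1.23, and fell by 1.06 ± 0.20 (adjusted p = 0.00379). PRKAG3 fell by 1.32 ± 0.26 (adjusted p = 0.00448), from between -2.56 and -1.90 to between -4.29 and -3.08.

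The lactate and pyruvate carriers SLC16A1 and SLC16A3 fell too. SLC16A1 stood at 2.70, 2.81, 3.21, 3.34 and 3.23 at day 8 and at 1.92, 2.06 and 2.50 at day 12, and fell by 0.89 ± 0.17 (adjusted p = 0.00404, both of 2 probes). SLC16A3 fell by 1.06 ± 0.25 (adjusted p = 0.0116). SLC5A1, the sodium-coupled glucose transporter, was at -0.21 ± 0.30 and did not pass, nor did the muscle glycogen phosphorylase PYGM (-0.60 ± 0.24) or the glycogen synthase GYS1 (-0.25 ± 0.29).

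Of 5 measured ion and calcium transport genes, 3 fell, 0 rose and 2 did not pass, where 22% of all named genes fell, with a median of -0.78. CFTR, the chloride channel that sets fluid secretion in epithelia, was at 0.42, 0.78, 0.29, 1.54 and 1.39 at day 8 and at -1.72, -0.28 and 0.46 at day 12. It fell by 1.30 ± 0.37 (2.46-fold, adjusted p = 0.0252), with 1 of 2 probes past the threshold. The calcium pump ATP2A2 of the endoplasmic reticulum fell by 0.86 ± 0.20 (adjusted p = 0.0104). S100G, the cytosolic calcium carrier calbindin, missed the threshold at -0.78 ± 0.27 (adjusted p = 0.0525), although all its 5 probes lay between -0.85 and -0.77 and 1 passed, and the sodium channel SCN4A stood at 0.13 ± 0.30. CFTR did not pass when scan day was a random block (adjusted p = 0.103), nor in 3 of the 11 fits that left out 1 array.

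Interferon response genes are those switched on in cells that sense virus or interferon. Of 10 measured, 4 rose and 2 fell, where 8.65% and 22% of all named genes did, with a median of 0.31. MX1, an antiviral GTPase, stood at 1.43, 2.25, 1.92, 2.19 and 2.46 at day 8 and at 2.61, 3.27 and 3.94 (lowest, median and highest) at day 12. It rose by 1.14 ± 0.25 without overlap (2.21-fold, adjusted p = 0.00823, both of 2 probes). OAS2, which makes the oligoadenylates that activate RNA decay, was at -0.75, -0.34, -0.78, -0.33 and -0.55 at day 8 and at -0.14, 0.29 and 1.13 at day 12. OAS2 rose by 0.99 ± 0.24 (adjusted p = 0.0114), and all 6 of its probes passed, at 0.99 to 1.46.

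EIF2AK2 and the chemokine CXCL10 were the other genes of the list that rose, CXCL10 by 0.59 ± 0.20 (adjusted p = 0.044) with 2 of 5 probes past the threshold. Of the related oligoadenylate synthetases OAS3 fell by 0.97 ± 0.23 (adjusted p = 0.0114) and OASL by 0.64 ± 0.17 (adjusted p = 0.0174). OAS3 ranged from -2.23 to -1.69 at day 8 and from -3.59 to -2.50 at day 12. OAS1 stood at 0.43 ± 0.18 (adjusted p = 0.0983) by its brightest probe, while 3 of its 4 probes passed at up to 0.71. IFI27 was at 0.20 ± 0.32 and TLR3, a sensor of double-stranded RNA, at 0.09 ± 0.18, neither past the threshold. CXCL10 and OASL did not pass when scan day was a random block (adjusted p = 0.172 and 0.0525), and CXCL10 lost its call in 8 of the 11 fits that left out 1 array.

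Innate defence genes moved in both directions. Of 10 measured, 1 rose and 3 fell, where 8.65% and 22% of all named genes did, with a median of -0.20. The list does not hold the beta-defensin DEFB4B, which rose as given above. Nor does it hold the defence genes ECATH-2, ECATH-3 and SFTPA1, which fell by 1.41, 1.08 and 0.98 (adjusted p = 0.00737, 0.00876 and 0.00494). CD14, a co-receptor for bacterial lipopolysaccharide, stood at 0.70, 0.33, 0.58, 0.49 and 0.19 at day 8 and at 1.16, 1.40 and 1.85 at day 12, and rose by 1.01 ± 0.15 without overlap (adjusted p = 0.00155). TLR4, which signals the same ligand, was at 3.67, 2.12, 1.94, 1.93 and 1.73 at day 8 and at 0.58, 0.96 and 1.15 at day 12. TLR4 fell by 1.39 ± 0.31 (adjusted p = 0.00869), and by 1.04 without the day 8 array of mare 1, but its second probe stood at 0.35. The receptor for bacterial lipoproteins, TLR2, fell by 0.48 ± 0.14 (adjusted p = 0.031; adjusted p = 0.129 when scan day was a random block), and lost its call in 6 of the 11 fits that left out 1 array. TLR9 (0.56 ± 0.36), NOS2 (0.52 ± 0.26) and LY96 (-0.24 ± 0.16) did not pass.

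Among 22 measured cytokines, chemokines and their receptors, 2 rose, 4 fell and 16 did not pass, with a median of 0.19. The counts lay near the 8.65% and 22% of all named genes that rose and fell. CCL11, the eosinophil chemoattractant eotaxin, stood at -2.60, -4.04, -3.85, -3.72 and -4.12 at day 8, above the day 12 range of -5.36 to -4.50, and fell by 1.37 ± 0.28 (adjusted p = 0.00555). The anti-inflammatory cytokine IL10 was at -3.64, -4.39, -3.85, -3.92 and -3.76 at day 8 and within -4.83 to -4.52 at day 12, and fell by 0.78 ± 0.15 (adjusted p = 0.00397, 5 of 5 probes). IL7R, a receptor of lymphocytes, fell by 1.07 ± 0.34 and IL12A by 0.84 ± 0.24 (adjusted p = 0.0396 and 0.0252), and they lost their calls in 8 and 4 of the 11 fits that left out 1 array. IFNG, interferon gamma, rose by 0.91 ± 0.19 (adjusted p = 0.00699), but was well above background on 5 of 6 arrays at day 12 and 1 of 5 at day 8, so its difference is measured near background, and it was 0.00 with normexp.

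The largest differences in that list that did not pass were IL23A at 0.84 ± 0.33, CCL5 at 0.60 ± 0.24 and CSF3 at 0.57 ± 0.25. In antigen presentation CD74, the invariant chain of class II molecules, rose by 0.55 ± 0.16 (adjusted p = 0.0287), without overlap, but not in 4 of the 11 fits that left out 1 array. CD40 stood at -0.09 ± 0.16. The class I gene EQMHCC1 ranged from -5.33 to 3.06 among the day 12 mares alone, against 0.73 to 1.86 at day 8, and stood at -0.37 ± 1.27. When scan day was a random block IL7R, IL12A and CD74 did not pass (adjusted p = 0.0936, 0.0931 and 0.119).

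Extracellular matrix genes were mixed. Of 15 measured, 3 rose, 3 fell and 9 did not pass, where 8.65% of all named genes rose and 22% fell. The list median was -0.21. These counts depend on the choice of members. Outside the list the collagen gene COL5A2 and the metalloproteinase gene MMP26 fell by 0.93 and 0.85 (adjusted p = 0.00129 and 0.0126). The integrin subunit ITGA9, also outside it, fell as given above. CD44, the receptor of hyaluronan, rose by 0.76 ± 0.19 (adjusted p = 0.0148) and TIMP3, a metalloproteinase inhibitor bound to matrix, by 0.64 ± 0.20 (adjusted p = 0.034, 5 of 5 probes). LUM, a collagen-binding proteoglycan, stood at 1.64, 1.43, 1.60, 1.80 and 1.47 at day 8 and at 0.10, 1.1 and 1.26 at day 12, and fell by 0.63 ± 0.20 (adjusted p = 0.0386). Only 1 of 6 LUM probes passed.

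COL2A1, a cartilage collagen, fell by 1.32 ± 0.38 and the aggrecan-cleaving protease ADAMTS4 by 1.18 ± 0.23 (adjusted p = 0.0242 and 0.00433), and the second ADAMTS4 probe stood at 0.69. MMP9, a gelatinase, had a large difference that did not pass, 1.66 ± 0.65 (adjusted p = 0.0778), with levels from -5.07 to -1.04 at day 12 and from -5.82 to -3.89 at day 8. HAS2 stood at -0.68 ± 0.35 and BGN at -0.59 ± 0.20 (adjusted p = 0.0534). When scan day was a random block CD44, TIMP3, LUM and COL2A1 did not pass (adjusted p = 0.073, 0.138, 0.148 and 0.0737), and TIMP3 and LUM lost their calls in 7 and 6 of the 11 fits that left out 1 array.

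Growth factor genes had 1 rise and 1 fall among 8 measured, where 8.65% of all named genes rose and 22% fell. Their median of 0.08 became -0.04 with median scaling. MET, the receptor of hepatocyte growth factor, stood at 2.43, 2.86, 2.71, 2.90 and 3.02 at day 8 and at 3.01, 3.52 and 3.79 at day 12. MET rose by 0.67 ± 0.17 (adjusted p = 0.0146; adjusted p = 0.059 when scan day was a random block), with all 3 probes past the threshold, at 0.67 to 1.83. MSTN fell as given above. IGF1 at 0.64 ± 0.29, INHA at -0.86 ± 0.49 and INHBA at -0.48 ± 0.43 did not pass, nor did IGF2 (0.44 ± 0.29).

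With a median of 0.32, 2 of 6 genes of vessel growth and hypoxia rose and 0 fell, where 8.65% and 22% of all named genes did. They were CDH13 and EDNRA, a receptor of endothelin, at 0.74 ± 0.20 (adjusted p = 0.0194, and 0.0995 when scan day was a random block). EDNRA was dim and stood at 0.17 with normexp. EPO at 0.42 ± 0.36, EDNRB at -0.39 ± 0.29 and ANGPTL2 at 0.21 ± 0.20 did not pass. Actin genes had 2 rises among 7 measured, where 8.65% of all named genes rose, and a median of 0.15. GSN, the actin-severing protein gelsolin, rose by 0.93 ± 0.29 (adjusted p = 0.0367, both of 2 probes), and TAGLN by 0.84 ± 0.27 (adjusted p = 0.0425). The small GTPase RND3 (0.45 ± 0.17), the actin-binding peptide TMSB10 (-0.45 ± 0.19, with 1 of 5 probes past the threshold) and ACTB (-0.32 ± 0.16) did not pass. GSN and TAGLN did not pass when scan day was a random block (adjusted p = 0.153 and 0.135), and lost their calls in 6 and 8 of the 11 fits that left out 1 array.

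Neuroendocrine and peptide hormone genes had the lowest list median, -1.62 over 7 measured, with CHGA as the single rise and falls of SV2A, GAST and HTR1B. Of all named genes 8.65% rose and 22% fell. The median rests on few genes: it was -0.97, -1.08, -1.1 and -1.1 when day 8 mare 1, 4, 5 or 6 was left out. NPPA, the atrial natriuretic peptide, was well above background on 1 of 6 arrays at day 12 and stood at -1.67 ± 0.64 (adjusted p = 0.0735). Relaxin, RLN, was at -0.52 ± 0.20 and CALCA, the calcitonin gene, at -0.49 ± 0.33.

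Genes of protein turnover and stress differed by small but even amounts. All 4 measured genes of the proteasome and the COP9 signalosome, a complex that removes NEDD8 from ubiquitin ligases, passed, 2 in each direction. Of all named genes 30.6% passed. PSMD4, the ubiquitin receptor of the proteasome, stood at -1.01, -0.77, -0.99, -0.97 and -0.90 at day 8 and at -0.09, 0.04 and 0.13 at day 12, and rose by 0.95 ± 0.11 (adjusted p = 0.000406). COPS7A rose by 0.56 ± 0.15 (adjusted p = 0.0168; 0.0725 when scan day was a random block). COPS9 fell by 0.65 ± 0.14 (adjusted p = 0.00637, 4 of 4 probes) and PSMB2, a catalytic subunit, by 0.63 ± 0.12 (adjusted p = 0.00489). The list median of -0.04 turned to 0.01 with quantile normalisation and to 0.08 with the percentile over detected probes.

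Of 6 antioxidant and stress genes 3 fell and 0 rose, where 22% and 8.65% of all named genes did. Their median of -0.50 became -0.14 with quantile normalisation. SOD1, the cytosolic superoxide dismutase, stood at 5.61, 5.33, 5.50, 5.24 and 5.28 at day 8 and within 4.64 to 4.82 at day 12, and fell by 0.68 ± 0.12 (adjusted p = 0.00254). The chaperones HSPA8 and HSP90AB1 fell by 1.01 ± 0.15 and 0.67 ± 0.18 (adjusted p = 0.0014 and 0.0209; for HSP90AB1 0.0708 when scan day was a random block). TXN (-0.33 ± 0.13), GPX3 and SOD2 (0.26 ± 0.16, with 1 of 9 probes past the threshold) did not pass. In the short chromatin list SUZ12 fell, and the imprinted RNA H19 stood at -0.83 ± 0.49, while its second probe passed at -1.66 ± 0.39 (adjusted p = 0.0102). None of 4 measured Wnt pathway genes passed, where 30.6% of all named genes did, and so few members do not set the list apart. RSPO3 was at 0.37 ± 0.23, WNT2 at 0.29 ± 0.26 and CTNNB1 at 0.19 ± 0.21. The immediate early gene FOS was at 1.05 ± 0.75 and CASP1 at -0.26 ± 0.17.

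Markers of the cell types that a biopsy can hold were followed as well. In bulk tissue a change in the number of cells of a type and a change in RNA per cell cannot be told apart. Of 4 markers of T and NK lymphocytes 1 passed, IFNG, where 30.6% of all named genes did. GZMB (0.18 ± 0.66), the NK receptor gene LY49C (0.11 ± 0.46) and CD2 (0.05 ± 0.25) did not pass. The summed linear level of the 4 was 1.82 to 18.5 at day 12 and 2.14 to 23.0 at day 8, in multiples of the 75th percentile of the array. Outside the list the NK receptor genes KLRB1 and LY49F passed as lower, at -1.14 and -0.84 (adjusted p = 0.0467 and 0.0119). The NK cell genes KLRF1, LY49E, KIR3DL and GNLY, also outside it, did not pass. The 4 macrophage markers summed to 9.42 to 12.3 at day 12 and 9.13 to 12.2 at day 8. Among them CD14 rose, while ITGAX (-0.61 ± 0.29), CD68 (-0.23 ± 0.18) and LAPTM5 (-0.17 ± 0.14) did not pass. The other ITGAX probes disagreed with the brightest: 5 of 7 were higher, at up to 0.83, and the mean over the 7 was 0.32.

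Vessel markers summed to 3.82 to 5.74 at day 12 and 2.56 to 4.54 at day 8. Of these 4 PECAM1, a junction protein of endothelium, stood at 0.08, 0.21, 0.02, 0.04 and -0.05 at day 8 and at 0.51, 0.96 and 1.51 at day 12. PECAM1 rose by 0.92 ± 0.18 (adjusted p = 0.00516, 3 of 3 probes), while SELE (-0.70 ± 0.47), SELP (0.35 ± 0.25) and VCAM1 (0.12 ± 0.24) did not pass. The smooth muscle marker TAGLN, the only one of its list measured, was 0.371 to 0.787 at day 12 and 0.209 to 0.502 at day 8 on the linear scale. The stromal markers DCN and LUM summed to 12.7 to 22 at day 12 and 21.1 to 27.8 at day 8, and DCN stood at -0.36 ± 0.16. ESRP1, the epithelial marker measured, was at -0.14 ± 0.16, and at 0.06 with quantile normalisation. The part of these cell types in the differences of CDH13, LUM, TAGLN and CD14 was not tested.

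Blood and embryo markers were dim. The platelet integrin ITGA2B fell by 0.84 ± 0.14 (adjusted p = 0.00245) and the globin HBA2 stood at -0.71 ± 0.25, and the 2 summed to 0.303 to 0.571 at day 12 and 0.563 to 0.751 at day 8. MMP9 was the single neutrophil marker measured, the tryptase TPSB2 (-0.15 ± 0.71) and FCER1A (-0.31 ± 0.56) stood for mast cells, and FCER2 (0.06 ± 0.30) for B cells. The 3 embryo and trophoblast genes PAG (0.75 ± 0.29), IFND1 (-0.54 ± 0.22) and CGA (-0.27 ± 0.25) did not pass, except for 1 of 5 PAG probes, and summed to 0.129 to 0.229 at day 12 and 0.177 to 0.271 at day 8. IFND2, a gene related to IFND1 and outside the list, passed as lower, at -1.25 (adjusted p = 0.00462), against -1.10 in control samples. With a median of -0.61, 0 of 14 measured genes typical of other organs rose and 4 fell, where 8.65% and 22% of all named genes did. They were LGB1, a milk protein gene, at -1.49 ± 0.34, CRISP3 at -1.05 ± 0.33, the cardiac myosin MYH7 at -0.87 ± 0.24 and the melanocortin receptor MC1R at -0.83 ± 0.25 (adjusted p = 0.009, 0.034, 0.0205 and 0.0311), and none of the 4 passed when scan day was the block (adjusted p = 0.0558 to 0.102). CYP3A97 (-1.25 ± 0.76), CYP3A89 (-0.75 ± 0.84) and CSN3 (-0.71 ± 0.31) did not pass. CRISP3 and MC1R lost their calls in 8 and 7 of the 11 fits that left out 1 array.

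Sizes of dim genes and some calls depended on how the background was treated. The processed signal already holds the scanner software's background subtraction. With normexp and spots of outlying local background left out, 74 of the 74 passing genes described here kept their direction and 54 passed. Those that did not were ADAMTS4, CCL11, CLU, COL2A1, CRISP3, CXCL10, EDNRA, GBE1, GSN, HSD17B1, HSP90AB1, IFNG, IL10, IL12A, IL7R, MC1R, NR5A2, P19, TAGLN and TLR2. The fold change was more than 1.5 times smaller for 13 of the 74, which all had a mean day 8 level of -2.60 or lower, and 6 of these 13 were among the 20 that lost the call. For the other 14 the size moved by less than that cut. It moved little for the bright genes P19 (-0.55), CLU (0.57) and GSN (0.84). Dim genes of the 14 lost much of their difference, as EDNRA (0.74 to 0.17), NR5A2 (0.87 to 0.28) and IL12A (-0.84 to -0.41). Of the 13, those whose value is not given above were CCL11 (-0.66), ADAMTS4 (-0.59), COL2A1 (-0.59), CRISP3 (-0.47), IL7R (-0.37) and LGB1 (-0.84, which passed). Normexp on all spots collapsed the values of 1 array, that of mare 1 at day 12, whose interquartile range became 0.38 log2. Under that setting the list medians of steroid genes (0.05), extracellular matrix (0.31), innate defence (0.42), neuroendocrine genes (0.39), macrophages (0.38), embryo and trophoblast (0.54) and genes of other organs (0.24) turned positive, as did that of proteasome genes, which lay near 0 in both (-0.04 and 0.0048), and with the outlying spots left out the neuroendocrine median was -0.34.

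Of the 74 genes 21 lost the call in at least 1 of the 11 fits that each left out 1 array. Those lost in 1 fit were COL2A1 without mare 1 of day 12, EDNRA and MYH7 without mare 4 of day 8, and HSP90AB1 without mare 6 of day 8. CLU was lost without mare 4 or 5 of day 8, and NR5A2 and PLA2G2A without mare 4 or 6 of day 8. Leaving out mare 4 of day 8 ended 18 calls, mare 6 of day 8 ended 16 and mare 1 of day 12 ended 14, against 7 for mare 1 of day 8.

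The day difference of pregnant samples was set beside that of control samples. Of 37174 probes tested in control samples 2935 passed (7.90%), 1033 higher and 1902 lower. Over 36456 probes tested in both, 2499 passed in both, which is 26.4% of the 9467 passing in pregnant and 85.6% of the 2918 passing in control samples, and all 2499 went the same way. Of the 9467, 98.1% had the same sign in control samples. Control and pregnant arrays of a mare shared a slide, so both differences carry the same slides, scan days and software. Of 577 named genes tested in both, 177 passed in pregnant and 54 (9.36%) in control samples, 52 of them in both. Among the 177, the difference was the larger in pregnant samples for 138. The median of the named genes that rose was 0.95 in pregnant and 0.61 in control samples, and that of those that fell was -0.83 and -0.66, where the choice of genes by the pregnant values favours the former.

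**Figure D4:**
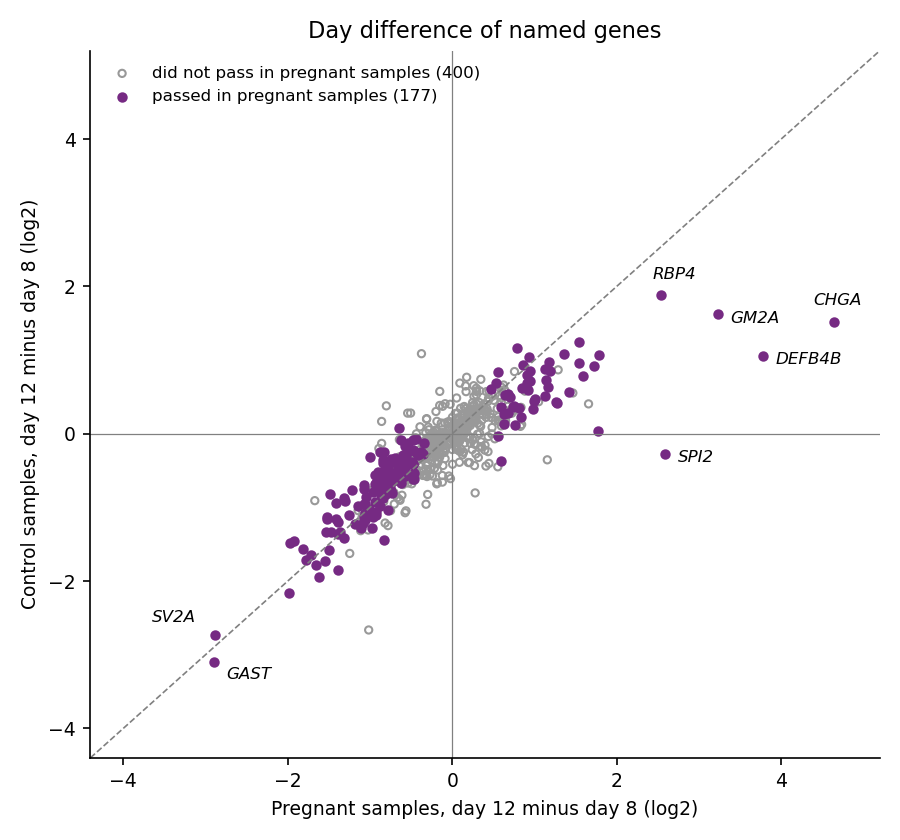
Day 12 minus day 8 difference of 577 named genes in pregnant (horizontal) and control samples (vertical), in log2; each point is a gene, filled where it passed in pregnant samples (177) and open where it did not, and the dashed line marks equal differences. GAST and SV2A lie near the line, whereas SPI2 lies away from it, at -0.27 in control samples.

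The difference between the 2 day effects was tested in 1 fit of all 22 arrays blocked by mare within each day. It passed for 4 of 38453 probes (0.0104%), with 4044 at an unadjusted p under 0.05. Of the 4 probes 3 belong to transcript ENSECAT00000015626 and 1 to ENSECAT00000022839. No named gene passed. The 5 with the smallest p were COPS9 (-0.73 ± 0.14), SMIM7 (-0.53 ± 0.10), SPI2 (2.86 ± 0.57), GM2A (1.61 ± 0.33) and RND3 (0.85 ± 0.18), each given as the pregnant minus the control day difference, with adjusted p between 0.151 and 0.183. SMIM7, a small membrane protein gene, stood at 3.68, 3.87, 4.01, 3.94 and 3.91 in pregnant samples at day 8 and within 3.17 to 3.36 at day 12, and fell by 0.62 ± 0.11 (adjusted p = 0.00297, both of 2 probes), against -0.09 in control samples.

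Most passing probes, 9186 of 9513, have no gene symbol here. Of 20226 accessions without a symbol, 6617 had at least 2 probes, and in 1006 of these all probes passed, 529 higher and 477 lower. Values below are of the brightest probe. DN508408 had the largest rise, from -8.28, -7.12, -5.48, -4.62 and -9.53 at day 8 in mares 1, 2, 4, 5 and 6 to 1.39, 2.47 and 3.40 (lowest, median and highest) at day 12, a difference of 9.45 ± 0.79 (adjusted p = 7.93e-05). All 5 of its probes passed, at 9.43 to 9.70. It was well above background on 3 of 5 arrays at day 8, and its control difference was 4.03 ± 0.54.

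ENSECAT00000015626 stood at -9.79 to -9.56 on 4 day 8 arrays and at -4.91 in mare 1, the only one of them well above background, and at -6.02 to -1.61 at day 12. It differed by 5.33 ± 1.01 (adjusted p = 0.00398), a size set against background values, and all 5 probes passed. ENSECAT00000017720 rose by 3.37 ± 0.44 (adjusted p = 0.00083, 5 of 5 probes) and ENSECAT00000018668 by 3.15 ± 0.50 (adjusted p = 0.00182, 2 of 2 probes), both detected on all 11 arrays and without overlap. In control samples they differed by 0.95 and 0.19.

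The largest falls without a symbol were as large as those of GAST and SV2A. DN510735 stood at 3.47, 3.58, 3.30, 3.17 and 2.94 at day 8 and at -1.08 to 0.69 at day 12. It was detected on all 11 arrays and fell by 3.72 ± 0.30 (13.2-fold, adjusted p = 7.62e-05), with 10 of 10 probes past the threshold, at -3.98 to -3.55, and with a control difference of -1.18. XM_001505142 fell by 3.93 ± 0.74 (3 of 3 probes), ENSECAT00000018641 by 3.46 ± 0.86 and ENSECAT00000020036 by 3.14 ± 0.52 (5 of 5 probes each), with adjusted p of 0.00386, 0.0139 and 0.00221. Of these 3 only ENSECAT00000020036 was well above background on as many as 5 of 6 day 12 arrays, against 3 and 2 for the others.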

How the data were processed

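RNA of 22 endometrium biopsies had been labelled with Cy3 and hybridised, per the labels' protocols, to horse arrays of Agilent in 1 colour. The deposited scanner output holds linear spot intensities from Agilent's Feature Extraction, which the submitters' processing notes give as version 10.5.1.1 and the file headers of the day 8 arrays as version 10.7.3.1. The processed intensities are background-subtracted, per the file headers. The authors' deposited value table was read as log2, with column medians of 7.47 to 8.83. It served as an alternative only, since its centring and normalisation are unknown.

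Levels are log2 processed intensity minus the 75th percentile over non-control spots. Outlier spots were left out and spots of a probe averaged. Probes that 5 or more of 11 arrays showed well above background were tested two-sided with eBayes after lmFit (limma 3.58.1, R 4.3.3), with Benjamini-Hochberg adjustment over all probes and a threshold of 0.05. Errors of differences are standard errors of that fit. The p-values measure the spread between arrays of a group, which holds differences of mare, slide and scan day together. The fit treats these arrays as independent, and arrays of a slide or scan day were correlated (0.26 and 0.32). The method was tested on simulated data. Names come from RefSeq accessions (assembly TB-T2T), which gave 1 symbol to 1394 probes, several to 1 and none to 42208. A gene stands by its probe with the highest mean level.

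Named are the 12 largest rises and 12 largest falls past the threshold, list members past it, up to 3 others of each list with the largest difference, ESR1, PGR, OXTR, PTGS2, PTGES, PTGFR and PTGDS, 4 transcripts each way without a symbol, and the 5 genes with the smallest p for the difference of the day effects. Some genes that the rule names are not reported here. ENSECAT00000022839 was named after its values were seen. The members and the gene lists were chosen with earlier results of these data known. Normexp used the median spot signal and median background of the deposited files. Alternatives covered scaling, background correction, filters, blocks, the value table and each array left out.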

Additional observations from a re-analysis of the deposited data

Results flagged for a closer look

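In 24 of 164 groups of pregnant samples tested (14.6%) 1 array lay apart from the others, with a gap to its nearest neighbour above the 95% critical value for the range of the group. Chance gives this in about 1 in 20 groups. The day 8 array of mare 1 accounted for 13 of the 24. It was the highest of its group for EIF2AK2 (-1.88), ABCC1 (-1.62), DPRX (-3.46), ITGA2B (-1.19), SLC16A3 (-0.43), COL2A1 (-2.68), CCL11 (-2.60), TLR4 (3.67), NFYC (7.61), HTR1B (-0.63), SUZ12 (4.15), GAST (6.44) and ENSECAT00000015626 (-4.91). It was also 1 of the 3 pregnant arrays with the lowest intensities, and the part of this in the 13 values was not tested.

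The other day 8 arrays that lay apart were mare 2 for GBE1 (-2.55), MC1R (-3.91) and SLC2A4 (-1.01), mare 4 for COPS9 (4.02) and XM_001505142 (-4.57), and mare 5 for ENSECAT00000018668 (-1.18). At day 12 they were mare 3 for LUM (0.10) and ESR1 (4.40), mare 5 for HSPA8 (5.18), and mare 6 for DPRX (-4.37) and ENSECAT00000018641 (-4.27).

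The day difference itself differed between pregnant and control samples for 4 probes (limma, Benjamini-Hochberg adjusted p). For ENSECAT00000015626 the adjusted p was 0.0142, 0.0434 and 0.00286 on its 3 probes, which were well above background on 6 of 6 pregnant day 12 arrays, 0 of 5 pregnant day 8 arrays and 1 or 2 of 6 control day 12 arrays. For ENSECAT00000022839 the adjusted p was 0.0434, and the difference was -2.33 ± 0.28.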

How the results depend on the processing

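Stage cannot be separated from slide, scan day and software version, and no alternative removes this. Signal over background limits the dim genes. Of the 74 passing genes described, 53 passed in every fit that left out 1 array, 60 when slide was a random block and 43 when scan day was.

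The count of 9513 probes became 445 with normexp on all spots, 836 with the authors' value table as deposited (7041 once scaled to the 75th percentile of each array, chosen after seeing the data) and 3809 when scan day was the random block. Chosen after seeing the data, normexp without spots of outlying background gave 5617 and normexp with mare 1 of day 12 left out gave 4360. Leaving out 1 array gave 6142 (mare 6 of day 8) to 10698 (mare 1 of day 8). The 177 named genes became 10 with normexp on all spots, 24 with the value table (144 once scaled), 88 with the scan day block, 126 with normexp without outlying spots, 97 with normexp and mare 1 of day 12 left out, and 123 to 192 with 1 array left out. The mare number across days as a replicate block gave 5751 probes and 116 named genes, and 42 probes in control samples. The labels do not make those numbers a pairing, and only mares 4, 5 and 6 of day 8 correlated best with their own number.

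The control count of 2935 became 4494 with quantile normalisation, 1702 with normexp, 1556 with normexp without outlying spots, 963 or 263 when slide or scan day was the random block, 5322 in a fit of all 22 arrays, 282 with the value table, 5979 without the dimmest arrays (chosen after seeing the data) and 793 to 3493 with 1 array left out, with the lowest counts without mare 1 (1271) or 4 (1714) of day 12 or mare 4 (1605), 5 (793) or 6 (808) of day 8. The 4 probes for the difference of the day effects became 0 with quantile normalisation, with the filter on all 22 arrays, with no replicate block, with the value table and with that table scaled, 2 with the percentile over detected probes and 2 with no filter, 11 with a trended prior, 13 with normexp without outlying spots and 1 to 49 with 1 mare left out. Without mares 1, 2, 3 and 5 of day 12 it was 2, 9, 49 and 31, and without mare 1, 2, 5 or 6 of day 8 it was 1.

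Differences that changed sign were P19 at 0.036 with quantile normalisation and, with normexp on all spots, HSD17B1 at 0.048, IL10 at 0.16, MC1R at 0.054, IL12A at 0.27, CRISP3 at 0.24, IL7R at 0.33, ADAMTS4 at 0.10, COL2A1 at 0.14 and CCL11 at 0.028. The cause of these changes was not tested.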
